A study of Mus musculus with 359 samples.

Results

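The genes described here are those for the subunits of the constitutive proteasome: every mouse gene symbol made of Psma, Psmb, Psmc or Psmd and a number, with Psmb8, Psmb9 and Psmb10 of the immunoproteasome left out. The rule was met by 36 of the 24421 gene symbols in each of 6 count tables. They comprised 8 genes of the alpha ring of the core particle, 8 of its beta ring, 6 ATPase subunits and 11 non-ATPase subunits of the regulatory particle, and 3 Psmd genes whose products are assembly chaperones. Polyadenylated RNA of liver and lung had been sequenced from male and female B6C3F1 mice given 4-methylimidazole, a small heterocyclic compound. Day 2 animals were dosed by gavage with vehicle (0) or 50, 100, 200 or 300 mg/kg-d, and day 5 and day 28 animals received 0, 150, 300, 1250 or 2500 ppm in feed. The 359 libraries fell into 60 groups by tissue, day, sex and dose, each of 6 libraries except 5 in lung day 5 females at 2500 ppm, and the labels name no engineered allele. Groups follow the titles: in 96 of the 120 day 28 libraries the characteristics give another dose, which the data cannot settle beyond sex, so every day 28 dose below is the title's. The labels do not say that the libraries of a group are separate animals, so p-values measure the spread between these libraries.

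The 26S proteasome is the protease complex that removes ubiquitin-tagged proteins from the cytosol and nucleus of every cell. Its core particle is a barrel of stacked rings in which alpha subunits form the gate and certain beta subunits cut the peptide chain, while the regulatory particle at the barrel's end recognises ubiquitin, removes it, and unfolds the substrate with a ring of ATPases. In hepatocytes and other cells the subunit genes are known to be transcribed together, and the membrane-anchored factor Nfe2l1, once cut by the protease Ddi2, raises them when proteasome activity is short.

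Library totals ran from 7253910 to 22527309 counts, and the 5-gene hepatocyte marker sum was at least 89060 counts per 1000000 (CPM) in liver and at most 294 in lung, whereas the alveolar type 2 sum ran from 17724 to 57801 in lung and reached 7.61 in liver. All CPM values of members are scaled by edgeR's trimmed mean of M values. A member was called where edgeR's quasi-likelihood test gave a Benjamini-Hochberg adjusted p below 0.05 over all genes tested in that comparison. Of the 36 members, 35 could be tested in all tables; Psmb11, a thymus form of a beta subunit, had a highest count of 24 in any library and was too low. Psma8, the testis form of an alpha subunit, was tested at medians of 9 to 15.5 counts in the 6 tables. Some libraries stood apart and are named beside the values they touch: lung day 2 males at 300 mg/kg-d replicate 66, lung day 5 males at 150 ppm replicate 098, lung day 28 females at 1250 ppm replicate 217 and liver day 28 male vehicle replicate 167. In bulk tissue, fewer cells of a type and less RNA per cell cannot be told apart.

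Subunit transcripts fell in the liver after 2 days at 300 mg/kg-d in both sexes. In males 22 of 35 tested members were lower, 13 of 15 in the core particle and 9 of 20 Psmc and Psmd genes, where 6.47% of all genes tested were lower. In females 16 members were lower, 9 in the core and 7 among Psmc and Psmd genes, where 14.7% of all genes were. No member was called higher at this dose in either sex by edgeR or DESeq2. The median log2 fold change was -0.30 in the core particle and -0.17 in the regulatory group of males, against -0.0016 over all genes, and -0.23 and -0.16 in females, against -0.02. Signs were negative for 34 members in males and 32 in females, while 50.2% and 52.3% of all genes had negative values.

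The lists of the sexes shared 15 members, which were 68.2% of the male list and 93.8% of the female list: Psma1, Psma2, Psma4, Psma6, Psma7, Psmb2, Psmb5, Psmb6, Psmb7, Psmc1, Psmc3, Psmc5, Psmd2, Psmd3 and Psmd14. The matching overlap over all genes is not given here, so these shares are not shown to be particular to the members. The test of the sex difference in the 300 mg/kg-d effect called none of the 35, at a background of 0.00792% of genes, so the 7 members called in males alone (Psma5, Psmb1, Psmb3, Psmb4, Psmc2, Psmc4 and Psmd4) and Psmd10, called in females alone, are not shown to differ between sexes. By unadjusted p below 0.05, 1 member differed (4.6% of all genes), and DESeq2 was not run on this difference. The counts rested partly on single libraries: in males 9 members were called without vehicle replicate 06 and 12 without replicate 65 at 300 mg/kg-d, and in females 10 without vehicle replicate 10 or without replicate 75 or 77 at the high dose. The core median remained between -0.35 and -0.28 in males and between -0.28 and -0.20 in females as each library was left out.

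**Figure D1:**
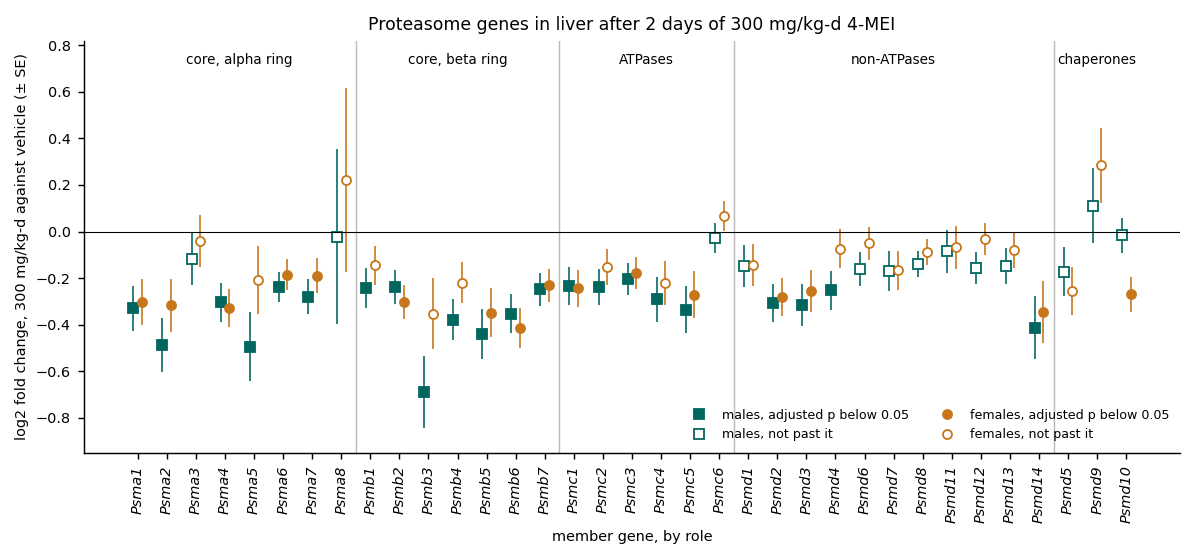
Log2 fold change (300 mg/kg-d against vehicle, liver, day 2) with its standard error for the 35 tested members, grouped by role, in each sex; filled marks passed an adjusted p of 0.05. Core particle members lie below 0 with few exceptions, and the beta ring has the lowest median in both sexes, -0.35 in males and -0.30 in females.

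In the beta ring, the median was -0.35 in males and -0.30 in females, and all 7 tested members were called in males. Psmb3, a structural beta subunit on chromosome 11 (97703399 to 97713500, GRCm38), had a lowest, median and highest level of 7.83, 9.49 and 13.2 CPM in the 6 male vehicle libraries and of 4.33, 6.12 and 7.37 CPM at 300 mg/kg-d. The male groups did not overlap, and Psmb3 fell by 0.69 on the log2 scale (SE 0.154, edgeR adjusted p = 0.00185). In females the difference was -0.35 (SE 0.153, adjusted p = 0.0718), with 1 treated library, at 8.05 CPM, inside the vehicle range of 7.51 to 8.67 CPM.

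The catalytic beta subunits were lower in both sexes; Psmb5 and Psmb6 were chosen for description after their values were seen. Psmb5 (chromosome 14, 54614119 to 54618022), which holds the chymotrypsin-like site, had 18.2, 21.1 and 26 CPM in male vehicle libraries and 13.1, 15.4 and 19.7 CPM in treated males. It fell by 0.44 in males (SE 0.107, adjusted p = 0.00385), with overlap of the groups, and by 0.35 in females (SE 0.106, adjusted p = 0.0103), without overlap.

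Psmb6 (chromosome 11, 70525367 to 70527858), the caspase-like subunit, had 56, 62.9 and 70.1 CPM in female vehicle libraries and 44.5, 46.4 and 51.4 CPM in treated females. Every treated female was below every vehicle female, and Psmb6 had the smallest adjusted p of the members in that sex (log2 fold change -0.41, SE 0.0849, edgeR adjusted p = 0.000216). Psmb6 of males went from 54.7, 63.2 and 71.1 to 46, 48.7 and 56.8 CPM, a log2 fold change of -0.35 (adjusted p = 0.00368).

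Psmb7 (chromosome 2, 38588036 to 38644087), the trypsin-like subunit, went from 49.3, 53.6 and 57.5 CPM to 43, 43.9 and 47.7 CPM in males. Its groups were separate in both sexes, although the change was small: -0.25 in males (SE 0.0705, adjusted p = 0.0131) and -0.23 in females (SE 0.0704, adjusted p = 0.0101). An exon of Psmb7 overlaps 405 bases of Nek6 on the opposite strand, and the strand setting of the counting is not given in the sources used here, so its reads are uncertain in part. Psmb1, a structural subunit and the beta member with the smallest mean change, fell by 0.24 in males (adjusted p = 0.0452) and had -0.15 in females (adjusted p = 0.1945).

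**Figure D2:**
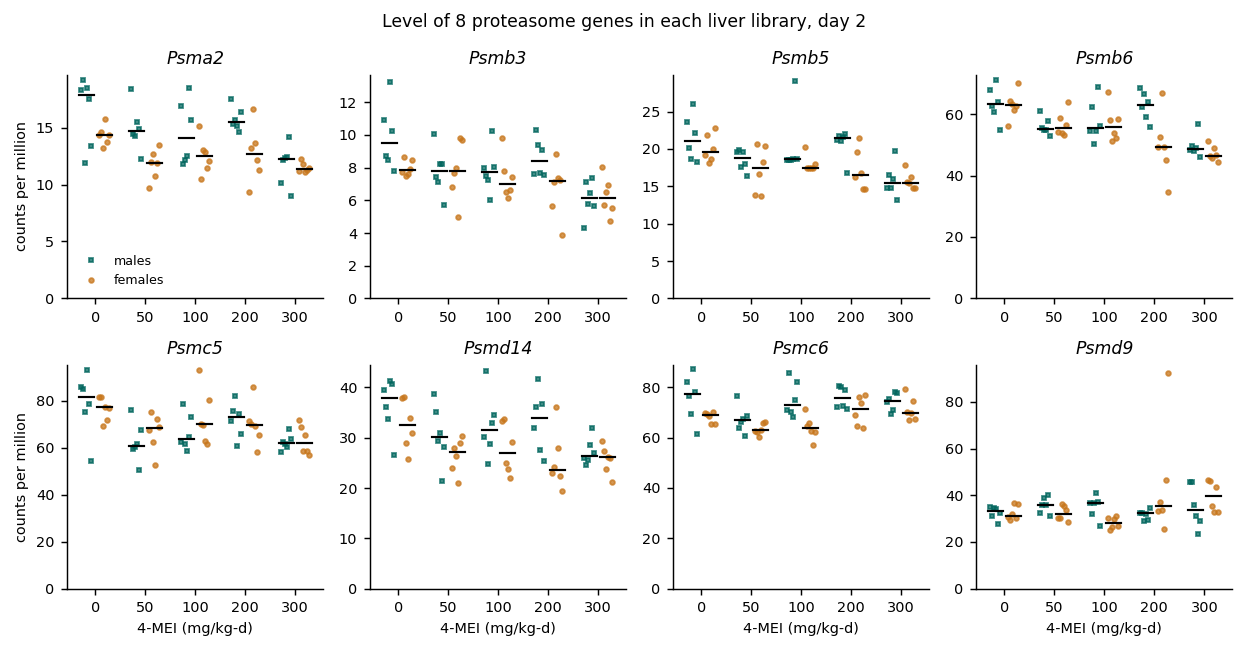
Scaled CPM of 8 members (Psma2, Psmb3, Psmb5, Psmb6, Psmc5, Psmd14, Psmc6 and Psmd9) in each liver library of day 2 against dose in mg/kg-d, by sex, with bars at the group medians and axes from 0. Treated Psmb6 values at 300 mg/kg-d lie at 44.5 to 51.4 CPM in females against 56 to 70.1 in vehicle, whereas Psmc6 stays level, and 1 female library at 200 mg/kg-d reaches 92.5 CPM for Psmd9.

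In the alpha ring, 6 of 8 members were lower in males and 5 of 8 in females, with medians of -0.29 and -0.20. Psma2 (chromosome 13, 14613240 to 14674236), a ring subunit, had 11.9, 17.9 and 19.2 CPM in male vehicle libraries and 9.03, 12.3 and 14.2 CPM at 300 mg/kg-d. It fell by 0.49 in males (SE 0.115, adjusted p = 0.00298), where 2 vehicle libraries lay within the treated range, and by 0.32 in females (SE 0.114, adjusted p = 0.0293), where 13.3 to 15.7 CPM and 11.1 to 12.3 CPM did not overlap. Psma5 fell by 0.49 in males (adjusted p = 0.0168) from a median of 6.55 to 4.42 CPM, and its female value was -0.21 (adjusted p = 0.2952). The exceptions were Psma3, with -0.12 in males and -0.04 in females, all libraries lying between 3.15 and 5.29 CPM, and the scarce Psma8, with -0.02 (SE 0.375) and 0.22 (SE 0.395).

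The ATPase ring, which pulls the substrate into the core, had medians of -0.24 in males and -0.20 in females, with 5 of 6 genes lower in males and 3 of 6 in females. Psmc5 (chromosome 11, 106256154 to 106263120) ran at 54.3, 81.6 and 93.2 CPM in male vehicle libraries and at 58, 62.0 and 67.9 CPM in treated males. Because 1 vehicle male was below all treated males, the groups overlapped; the log2 fold change was -0.34 (SE 0.101, adjusted p = 0.0187). In females Psmc5 went from 69.3, 77.1 and 81.8 to 56.8, 62.0 and 71.7 CPM, a change of -0.27 (SE 0.101, adjusted p = 0.0348). Psmc3, another ATPase, which overlaps Slc39a13 in part, fell by 0.20 in males and 0.18 in females (adjusted p = 0.0363 and 0.0413). Psmc6 was the ATPase gene not called in either sex, with a median of 77.5 CPM in vehicle and 74.7 CPM in treated males (-0.03, adjusted p = 0.7954) and of 68.9 and 69.95 CPM in females (0.07, adjusted p = 0.4653).

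Of the 11 non-ATPase genes, 4 were lower in males and 3 in females. Psmd14 (chromosome 2, 61711694 to 61800376), the deubiquitinase of the lid, went from 26.6, 37.8 and 41.2 to 24.5, 26.5 and 32 CPM in males. Its log2 fold change was -0.41 in males (SE 0.135, adjusted p = 0.0304) and -0.35 in females (SE 0.135, adjusted p = 0.0456), and the groups overlapped in each sex. Psmd2, the large scaffold of the base and a gene chosen after its values were seen, fell by 0.31 in males and 0.28 in females (adjusted p = 0.00762 and 0.00698). The lid subunits Psmd11 and Psmd12 were among those not called: -0.08 and -0.16 in males, -0.07 and -0.03 in females.

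The 3 chaperone genes, whose products help to assemble the base and leave before the particle is complete, did not follow one pattern. Psmd10 (gankyrin) went from 8.82, 9.64 and 10.4 CPM to 7.46, 7.91 and 8.62 CPM in females without overlap (log2 fold change -0.27, SE 0.0757, adjusted p = 0.00546), and was -0.02 in males (adjusted p = 0.9063). Psmd5 was at -0.17 in males and -0.26 in females, and neither passed (adjusted p = 0.2657 and 0.0562). Psmd9 had 0.11 and 0.28 (adjusted p = 0.6802 and 0.1771), and 1849 bases of its exons lie opposite the noncoding gene Gm26745, so that its counts depend on the strand setting.

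Promoters of 29 of the 36 members were found in RefSeq (GRCm38.p6, 250 bases before to 50 after the start site), the rest being Psma8, Psmb1, Psmb2, Psmb7, Psmc3, Psmd3 and Psmd7. They were searched on both strands for TGACNNNGC, the core of the antioxidant response element to which Nfe2l1 and its relatives bind. The letters stood in 5 of 29 members (17.2%) and in 12.4% of all 32851 promoters. Members were counted by gene, over 31 promoter entries, and the background by entry, so the shares have unlike units. A match describes the letters and not a bound site. Among members with a promoter, 2 of the 18 called in either sex at 300 mg/kg-d and 3 of the 10 tested and not called held it. The stretches around 4 of these matches are shown because the first pair belongs to catalytic subunits that were lower in both sexes and the other pair to members that were not called there. Capitals mark the match, read 5′ to 3′ on the gene's strand; the Psmc6 match lies on the other strand.
Psmb5, chr14:54617996-54618115, minus strand, match starting 47 bases before the start site: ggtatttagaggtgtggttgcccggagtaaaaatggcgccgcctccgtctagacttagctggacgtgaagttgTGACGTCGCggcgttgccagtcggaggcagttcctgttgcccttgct
Psmb6, chr11:70525237-70525356, plus strand, match starting 9 bases before the start site: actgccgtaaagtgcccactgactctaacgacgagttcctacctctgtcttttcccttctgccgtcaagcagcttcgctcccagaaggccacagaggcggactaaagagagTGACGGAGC
Psmc6, chr14:45329574-45329693, plus strand, match starting 227 bases before the start site: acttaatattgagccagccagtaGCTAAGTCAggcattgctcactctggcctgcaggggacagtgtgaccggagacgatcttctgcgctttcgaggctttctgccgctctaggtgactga
Psmd9, chr5:123228070-123228189, plus strand, match starting 31 bases before the start site: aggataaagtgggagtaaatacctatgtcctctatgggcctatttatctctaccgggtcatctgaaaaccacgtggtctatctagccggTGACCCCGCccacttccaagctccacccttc

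The other promoter word searched was CCAAT, the box bound by nuclear factor Y, again on both strands. It stood in 12 of 29 members (41.4%), counted by gene, and in 37.4% of all promoters, counted by entry. Of the members called at 300 mg/kg-d in either sex 10 of 18 held it, among them Psma2, Psmb3 and Psmd14, and of those tested and not called 1 of 10 did, namely Psma3. Psmb11, which holds it too, was not tested.

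Below 300 mg/kg-d the liver medians did not fall steadily with dose. In males the core median was -0.16 at 50, -0.14 at 100, -0.06 at 200 and -0.30 at 300 mg/kg-d, and the regulatory median was -0.18, -0.14, -0.06 and -0.17. No member was called in males at the lower doses by edgeR or DESeq2, with 4.7% of genes called in either direction at 100 mg/kg-d. An unadjusted p below 0.05 was reached by 18 members at 50 mg/kg-d (11% of all genes), 16 at 100 (18.7%) and 0 at 200 (6.21%). Without vehicle replicate 08, 4 members were called at 100 mg/kg-d and 1 at 50, and 10 reached an unadjusted p below 0.05 at 200. Median Psmb6 levels in males were 63.2 CPM in vehicle, then 55.2, 55.4, 63.1 and 48.7 CPM by rising dose, so the 200 mg/kg-d males were at the level of vehicle. All 4 male comparisons share the vehicle libraries, and so do all 4 of females.

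In females the core median went from -0.14 at 50 and 100 mg/kg-d to -0.18 at 200 and -0.23 at 300, and Psmb6 medians from 62.9 CPM in vehicle to 55.4, 55.9, 49.3 and 46.4 CPM. At 200 mg/kg-d the 6 members called lower were Psma1, Psma4, Psmb2, Psmb6, Psmb7 and Psmd2, with 6.78% of all genes lower. Psmb6 had 34.5 to 67 CPM there (log2 fold change -0.34, SE 0.0853, adjusted p = 0.00503), overlapping the vehicle group. Psmd9 was the member called higher (0.46, SE 0.161, adjusted p = 0.0393), where 10% of genes were higher. That value turned on replicate 64, at 92.5 CPM while the other libraries of the group reached 46.6 CPM; without it the change was 0.11 and not called. Without replicate 61 or 64 the count of members called at 200 mg/kg-d was 1, and without vehicle replicate 09, 10 or 14 it was 4. At 50 and 100 mg/kg-d edgeR and DESeq2 called no member in females, with 12 and 5 members at an unadjusted p below 0.05 (4.12% and 9.99% of all genes).

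**Figure D3:**
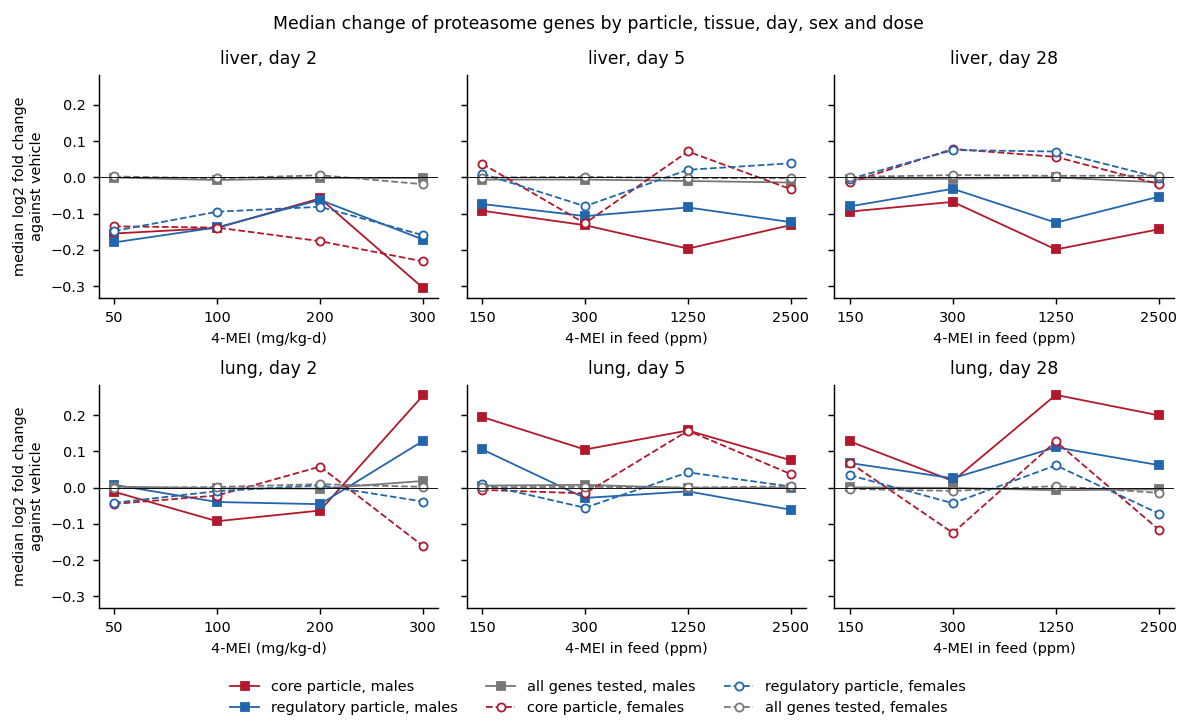
Median log2 fold change against vehicle of the 15 core members, the 20 Psmc and Psmd members and all genes at each dose, for 2 tissues and 3 days (males filled squares and solid lines, females open circles and dashed lines). Liver day 2 is the panel with both particles below 0 in both sexes at every dose, down to -0.30 for the core in males, while medians of all genes stay near 0; lung day 2 males at 300 mg/kg-d, at 0.25, include replicate 66.

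A property of the libraries moved with these changes. Core transcripts are short, with a median annotated length of 1165 bases (766 to 2911) against 1710.5 for Psmc and Psmd genes and 2270 for all genes. For each library the slope of log2 level against log2 transcript length, relative to the table's mean, was computed. It covered the tested genes with an annotated length, with the members left out. In liver at day 2 the median slope was -0.04 in male vehicle libraries and 0.06 at 300 mg/kg-d, and -0.02 and 0.09 in females. In neither sex did the slopes of vehicle and 300 mg/kg-d libraries overlap. Library totals were also separate in males, with 8457034 to 12857743 counts in vehicle and 14905474 to 17758970 at 300 mg/kg-d, and in females, with up to 15439569 and from 17210830 counts.

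Within groups, where dose does not vary, the mean core level and the length slope moved together in every table. Pearson's r of deviations from the group means over 60 libraries was -0.76 in liver day 2 (Spearman's rho -0.66; permutation p within groups 1e-05 for both, the smallest that 100000 permutations can give, 1.71e-05 adjusted over 12 relations). It was -0.94 in liver day 5 (rho -0.93), -0.86 in lung day 5 (59 libraries, rho -0.74) and -0.86 in lung day 28 (rho -0.76), all at the same permutation p. In lung day 2 r was -0.89 (rho -0.46, permutation p = 0.00074 and 0.00612, adjusted 0.00111 and 0.00816) and moved to -0.59 without the 2 libraries farthest from the median slope. In liver day 28 r was -0.60 (rho -0.30, permutation p = 0.0054 and 0.0264, adjusted 0.0072 and 0.0288) and -0.30 without 2 libraries, so that it rested in part on them. Elsewhere r without 2 libraries was -0.71 in liver day 2, -0.93 in liver day 5, and -0.78 in lung on days 5 and 28. For the regulatory particle r ran from -0.91 in liver day 5 to -0.40 in liver day 2 (rho -0.42, permutation p = 0.0107 and 0.00281, adjusted 0.0128 and 0.00422), and in liver day 28 it was -0.27 (rho -0.20, permutation p = 0.0613 and 0.128).

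**Figure D4:**
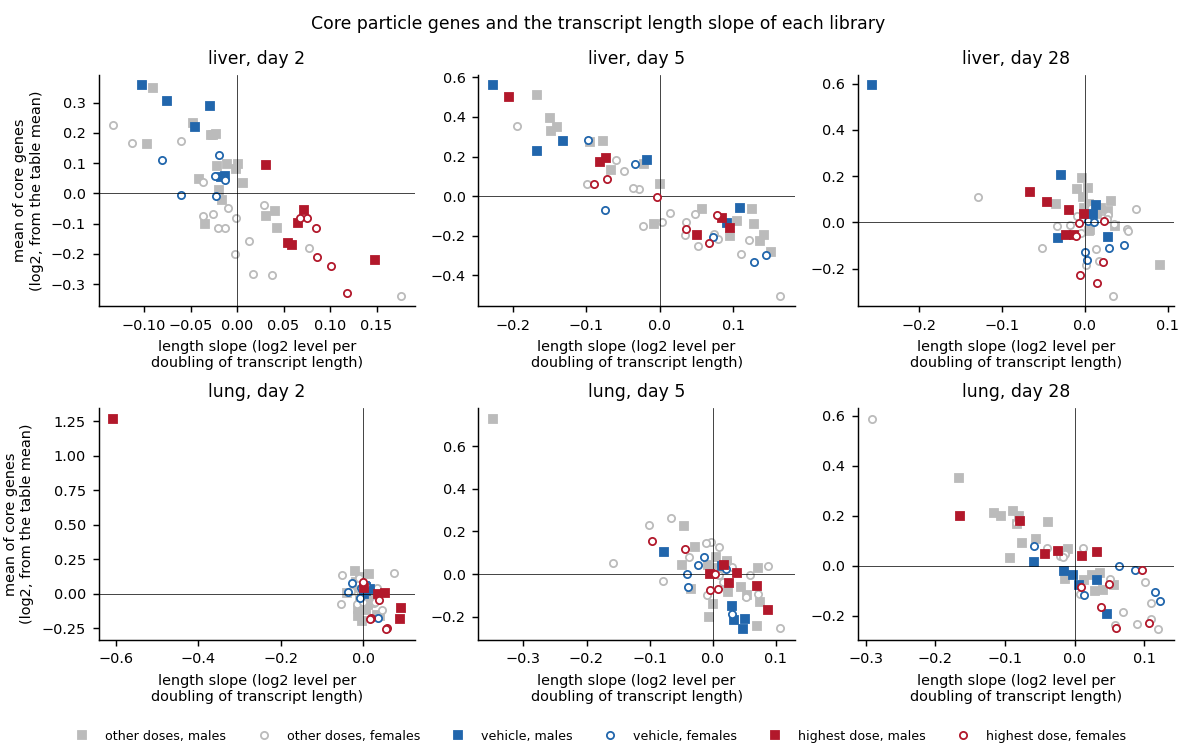
Mean log2 level of the core members, relative to the table's mean, against the length slope of each library in 6 panels by tissue and day. Libraries with higher slopes have lower core levels in each panel, and replicate 66 of lung day 2 males at 300 mg/kg-d lies alone at a core mean of 1.27 and a slope of -0.61.

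A smooth trend of log2 level on transcript length was then removed from each library before the test. At 300 mg/kg-d 6 members were still lower in males, where 496 of 12627 genes were. In females 4 members were lower, near the share of all genes, of which 1476 were lower. The members were Psma2 (-0.48, adjusted p = 0.0053), Psmb3 (-0.51, 0.0093), Psmb4 (-0.22, 0.0401), Psmb5 (-0.27, 0.0382), Psmb6 (-0.17, 0.0487) and Psmd2 (-0.31, 0.0105) in males. In females they were Psma2 (-0.32, adjusted p = 0.0349), Psmb6 (-0.22, 0.0033), Psmd2 (-0.29, 0.0069) and the chaperone Psmd5 (-0.36, 0.0203). Psma2, Psmb6 and Psmd2 were thus lower in both sexes with and without the trend; Psma2 and Psmd2 have annotated transcripts of 2911 and 2961 bases, above the median of all genes. The core medians became -0.15 in males and -0.06 in females, and the regulatory medians -0.10 and -0.05. By rising dose, female core medians in this fit were -0.10, -0.12, -0.13 and -0.06, so the highest dose had the weakest. Male core medians were -0.12, -0.10, -0.05 and -0.15. Regulatory medians were most negative at the lowest dose in each sex (-0.14 in males, -0.12 in females). Members with an unadjusted p below 0.05 numbered 16, 9, 0 and 13 in males by rising dose. In females they numbered 10, 6, 8 and 8. At 200 mg/kg-d in females Psma4, Psmb6 and Psmd2 stayed lower, near the share of all genes, of which 835 of 12627 were lower. Psmd9 stayed higher there (0.47, edgeR adjusted p = 0.0405), where 1157 of 12627 genes were higher. At 300 mg/kg-d the dose and the length slope cannot be told apart in this table, because the slopes of the dose groups do not overlap.

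**Figure D5:**
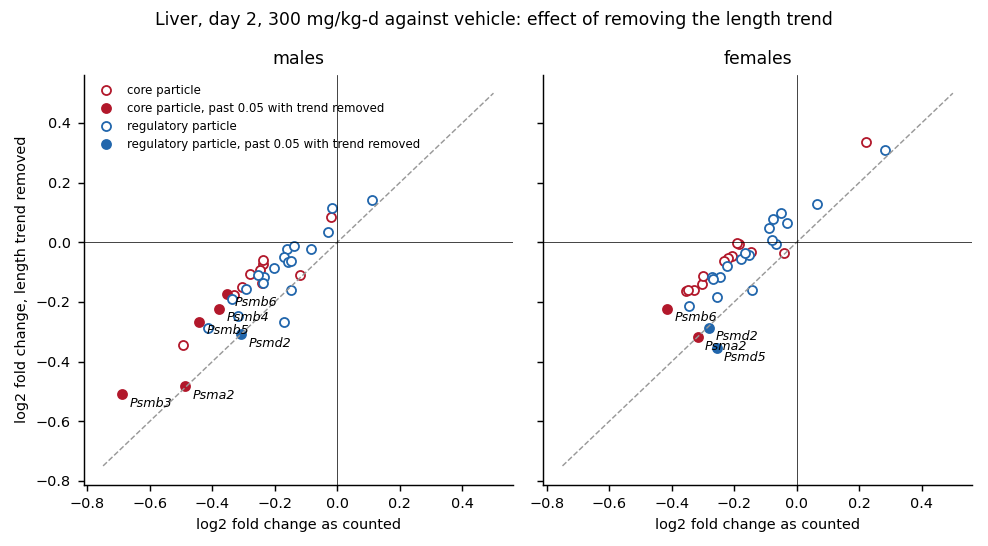
Log2 fold change of each member at 300 mg/kg-d in liver day 2, as counted (horizontal axis) and with the length trend removed (vertical axis), by sex; filled marks passed an adjusted p of 0.05 with the trend removed, and the dashed line marks equal values. Most core members lie above the line and closer to 0, whereas Psma2 (-0.49 and -0.48 in males) and Psmd2 (-0.31 and -0.31) lie on it.

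Cell markers at 300 mg/kg-d in the day 2 liver were as follows. The 6-gene leukocyte sum was 32.6 to 46.9 CPM in male vehicle libraries and 31.1 to 45.4 at 300 mg/kg-d, and 37.3 to 74.1 and 41.0 to 58.5 in females. The 3-gene Kupffer cell sum was 83.5 to 110.3 CPM and 73.4 to 91.3 in males, whereas females had 109.4 to 157.2 and 98.2 to 173 CPM. The hepatocyte sum was 103771 to 121138 CPM and 106292 to 124358 in males, and 127810 to 176987 and 167810 to 187663 in females. All of these sums overlapped between dose and vehicle, and the hepatocyte sum was set mainly by Alb. No hepatocyte or Kupffer marker was at 0 in any of these libraries, whereas the leukocyte gene Ms4a1 was at 0 in at least 1 library of each sex. Single markers did move: among hepatocyte genes Apoc3 fell by 0.26 in males (adjusted p = 0.0219, no overlap), and in females Ttr fell by 0.34 (adjusted p = 0.0428, no overlap) while Alb and Apoa1 rose by 0.30 and 0.45 (adjusted p = 0.0132 and 0.0153). Ttr had -0.31 in males without overlap of the groups (adjusted p = 0.101), and the Kupffer gene Timd4 fell by 0.38 in females (adjusted p = 0.0263). Hopx, from the alveolar type 1 list, rose by 0.50 in females (adjusted p = 0.00458). The part of these cells and genes in the subunit changes was not tested.

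Of the other genes of the proteasome pathway, 40 were listed and 39 present and tested. At 300 mg/kg-d in the day 2 liver 3 of the 39 were called higher and 8 lower in males, where 8.64% of all genes tested were higher and 6.47% lower. In females 6 were higher and 5 lower, where 15.3% of all genes were higher and 14.7% lower. Both female shares and the male share of higher genes were thus near the background. The medians of the list were -0.12 and -0.08. In the processing axis of Nfe2l1, 2 of 5 genes were called higher in each sex and none lower. This is a small part of a list without an excess of higher genes. The protease Ddi2 rose in males from 27.5, 39.1 and 53.3 to 47.1, 55.3 and 70.8 CPM (log2 fold change 0.57, SE 0.131, adjusted p = 0.00237). In females Ddi2 went from 34, 39.2 and 44.6 to 61.6, 65.9 and 79.4 CPM, with no overlap (0.79, SE 0.131, adjusted p = 1.11e-05). Nfe2l1 itself rose by 0.33 in males (adjusted p = 0.00663) and had 0.21 in females (adjusted p = 0.0513), and Ngly1, which deglycosylates it, rose by 0.16 in females (adjusted p = 0.0456). Sel1l and Syvn1 were called in neither sex. Of the 9 genes that deliver substrates, the shuttle Ubqln2 was the one called, at 0.32 and 0.36 (adjusted p = 0.0127 and 0.00174).

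Of 5 core assembly chaperones, 3 were called lower in each sex and none higher, with a median of -0.24 in males and -0.27 in females. Psmg1, Psmg2 and Psmg3, which build the alpha ring, had log2 fold changes of -0.24, -0.45 and -0.36 in males, and of -0.26, -0.31 and -0.27 in females, all past the threshold. Pomp, the maturation factor of the core, had -0.18 and -0.21 (adjusted p = 0.141 and 0.0607), and Psmg4 -0.13 and -0.31 (adjusted p = 0.531 and 0.0518). Of the immunoproteasome subunits, which replace catalytic ones in immune cells and under interferon, 2 of 3 were lower in each sex. Psmb9 went from 7.84, 8.58 and 10.2 to 3.29, 5.14 and 5.94 CPM in males, a fall of 0.84 without overlap (SE 0.23, adjusted p = 0.0102), and had -0.80 in females (adjusted p = 0.00396). Psmb10 changed by -0.54 in males and -0.86 in females (adjusted p = 0.00956 and 1.38e-05). Psmb8 had -0.42 and -0.25 and was not called.

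The activators Psme1 and Psme2, whose products cap the core without ATPases, fell in males by 0.36 and 0.63 (adjusted p = 0.0319 and 0.0254) and had -0.24 and -0.44 in females (adjusted p = 0.12 and 0.0738). Among factors bound to the particle, Shfm1 fell by 0.21 in males (adjusted p = 0.0493), and Akirin2, which carries proteasomes into the nucleus, and AI314180 rose by 0.28 and 0.21 in females. Of the ubiquitin genes Ubb rose by 0.27 in females (adjusted p = 0.0372). With the length trend removed, 3 of the 39 genes were higher and 3 lower in males, where 574 and 496 of 12627 genes were. In females 5 were higher and 4 lower, where 1549 and 1476 of 12627 genes were, so the female shares were near the background. In that fit Ddi2, Ubqln2 and Akirin2 were higher and Psmb9 was lower in both sexes. Psmg1 and Psmg3 were then called in neither sex, Psmg2 in males alone (female adjusted p = 0.289), and Psmb10 in females alone (male adjusted p = 0.0516). Nfe2l1 in males (adjusted p = 0.096), Ngly1 in females (0.0522), Psme1 and Psme2 in males (0.203 and 0.141), Shfm1 in males and AI314180 in females lost their calls. Calls were gained by Akirin2, higher, and Usp14, lower, in males, and in females by Vcp and Txnl1, lower, and Uchl5, higher.

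Outside the day 2 liver, members were called in 1 of 40 comparisons. Psmb7 was higher in lung of day 28 libraries titled as males at 1250 ppm (their characteristics give females at 150 ppm, which the Y-linked genes contradict for sex), with 31.7, 35.6 and 37.2 CPM in vehicle and 41.2, 45.7 and 57.2 CPM in treated libraries. The groups did not overlap (log2 fold change 0.42, SE 0.0874, adjusted p = 0.0412), and 0.032% of genes, 5 of 15646, were higher there. With the length trend removed the change was 0.31 and still called. Its value at the other feed levels was 0.26 at 150 ppm, 0.18 at 300 ppm and 0.29 at 2500 ppm, none called, and the call was lost, with a change between 0.36 and 0.45, in 9 of the 12 fits that left out 1 library. Among its beta neighbours at 1250 ppm Psmb3 had 0.43 (adjusted p = 0.149) and Psmb6 0.36 (adjusted p = 0.0911). In this comparison the core median was 0.26, and 20 of 35 members had an unadjusted p below 0.05, as did 14.1% of all genes.

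Over all 48 comparisons of a dose with vehicle, 44 had no member called by edgeR; DESeq2 called none in 42 of these and up to 7 members in the other 2, both in liver of day 28 males. The unadjusted p was below 0.05 for 0 to 18 members in the 44, with a median of 3.5, and for 1.67% to 23.1% of all genes (median 7.84%). At the highest dose the share of all genes called in either direction was 0.0545% in liver day 5 females, 0.405% in liver day 5 males, 1.16% in liver day 28 females and 0.0775% in liver day 28 males. In lung it was 8.73% in day 2 females (5.41% at 200 mg/kg-d), 0.21% in day 2 males, 0.0319% and 0% in day 5 females and males, and 0.121% and 0.0128% in day 28 females and males. Elsewhere it was at most 0.163%. Lung of day 2 females is therefore a setting in which over 5% of genes were called and no member was, with a core median of -0.16 and a regulatory median of -0.04 at 300 mg/kg-d.

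In liver of feed-treated males the medians lay below 0 at every dose. The core median at day 5 was -0.09, -0.13, -0.20 and -0.13 by rising dose, and at day 28 it was -0.09, -0.07, -0.20 and -0.14. The day 28 values moved with 1 vehicle library, replicate 167, whose core mean was 0.59 and whose length slope was -0.26; without it they were 0.01, 0.02, -0.09 and -0.03. At 1250 ppm 16 members had an unadjusted p below 0.05 with it (15.3% of all genes) and 8 without it (10.2%). In liver of females on feed, core medians ran from -0.13 at 300 ppm of day 5 to 0.08 at 300 ppm of day 28.

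In lung several positive medians moved with 1 library. In day 2 males at 300 mg/kg-d the core median was 0.25 and the regulatory median 0.13, and without replicate 66 they were -0.07 and -0.06. That library had a core mean of 1.27 on the log2 scale where the next highest of its group had 0.04, a length slope of -0.61, and the highest marker sums of its table for alveolar type 2 cells, club cells and leukocytes. In day 5 males at 150 ppm the core median of 0.19 became -0.02 without replicate 098, and in day 28 females at 1250 ppm 0.13 became 0.02 without replicate 217. Day 28 males kept positive core medians at all 4 feed levels, from 0.02 at 300 ppm to 0.26 at 1250 ppm, and day 28 females had negative ones at 300 and 2500 ppm (-0.12 at each).

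Tests of differences between groups called few members. Between sexes at the highest dose none was called in any of the 6 tables, where 0.0387% of genes were called in liver day 28 and 0% in liver day 5 and in lung on each day. Members with an unadjusted p below 0.05 numbered 2 in liver day 5 (4.06% of all genes), 2 in liver day 28 (6.72%), 17 in lung day 2 (12.9%), 0 in lung day 5 (3.5%) and 15 in lung day 28 (8.32%). The lung day 2 number was 1 without replicate 66 (7.75% of genes), and the difference of core medians, females minus males, went from -0.46 to -0.08. In lung day 28 the core median of that difference was -0.28. Between day 28 and day 5 at 2500 ppm no member was called in either sex or tissue (0.0914% of genes in liver females, 0% in the others), and 0, 0, 1 and 3 had an unadjusted p below 0.05 in liver females, liver males, lung females and lung males (8.24%, 5.6%, 5.23% and 5.42% of all genes).

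Liver and lung were compared in a joint fit of both tissues, as the dose effect in liver minus that in lung. In day 2 males 18 members were more negative in liver, 11 of them in the core, at a background of 8.26% of genes. The smallest adjusted p-values belonged to Psmb6 (-0.71, edgeR adjusted p = 0.0055), Psmb3 (-1.10, 0.0074), Psma4 (-0.56, 0.0142) and Psma2 (-0.82, 0.0165). All 18 calls were lost without lung replicate 66; 10 members then had an unadjusted p below 0.05 where 24 had before, and the core median of the difference went from -0.56 to -0.21. In day 2 females none was called (5.91% of genes; 2 members and 20.5% of genes at an unadjusted p below 0.05). In day 28 females Psmd7, a lid subunit, was higher in the liver effect by 0.35 (adjusted p = 0.0245, 0.328% of genes), and in day 28 males Psmb7 had -0.48 (adjusted p = 0.0414, 0.0805% of genes). The Psmd7 call was lost with RLE size factors and with scaling by library totals, and the Psmb7 call with library totals. Both were lost among the libraries with a number shared by liver and lung, with or without the replicate block. On day 5 none was called in either sex, at 0.0062% of genes in each.

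In vehicle animals, all 35 tested members were higher in liver than in lung on each day in the joint fit, which scaled both tissues together. In that fit 91.3% of genes differed on day 2, 90.4% on day 5 and 90.2% on day 28 in either direction. The core medians of the log2 difference were 1.67, 1.52 and 1.19, against -0.20, -0.23 and -0.19 over all genes. Scaling by library totals alone moved the median of all genes to -1.44, -1.58 and -1.50, and with this common shift 18 members were higher and 5 lower on day 2, 10 and 12 on day 5, and 4 and 21 on day 28. Relative to the median of all genes, the core median was 1.87, 1.74 and 1.38 as scaled here and 1.87, 1.73 and 1.38 by library totals. Subtracting that median removes any shift common to all genes, so this match was bound to occur and does not test the scaling. Per kilobase of transcript, Psmb4 and Psma7, at 114.6 and 113.04 CPM per kb, led in liver and overlapped in their range over 6 vehicle groups, followed by Psmb6 at 82.6 and Psmb2 at 78.8. In lung Psma7 led at 112.9, before Psmb4 at 97.7, Psmb2 at 86.4 and Psma1 at 82.2 CPM per kb. These CPM are scaled within each tissue and day, so they rank members within a tissue and are not on the scale of the joint fit. By these values Psmb4 was higher in liver, Psma7 nearly level and Psmb2 higher in lung. Psma8, Psma3, Psma5 and Psma2 were the lowest tested members in both tissues.

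Members also varied together between libraries of the same group, which is given as a description, because these values share each library's depth, scaling and length slope. The median Pearson r between pairs of core members was 0.55, 0.83 and 0.46 in liver on days 2, 5 and 28 (60 libraries each) and 0.76, 0.73 and 0.66 in lung. Between core and regulatory members it was 0.35, 0.74, 0.37, 0.71, 0.64 and 0.52 in the same order. For each gene the median r with the core members was taken in each table, and then the median over the 6 tables. The genes most like the core members by this value were Psmb1 (0.82), Psmb4, Psma7 and Psmb6 (0.79 each). Psmd1, the large scaffold partner of Psmd2, was least like them at -0.03, then Psma8 at 0.09, Psmd11 at 0.11 and Psma3 at 0.20, and these 4 were also among the members not called in the day 2 liver.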

How the data were processed

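Deposited counts per gene were whole numbers; reads had been handled with Trimmomatic, Bowtie2, SAMtools and HTSeq against mm10, per the submitters' processing notes, from a stranded mRNA kit per the labels' protocols, with no strand setting given in the sources used here. Groups followed the titles: title and characteristics disagreed on dose in 96 and on sex in 48 of the 359 libraries, and the summed Y-linked genes (over 5 CPM in males) matched the title in all 359 and the characteristics in 311. All these conflicts were among the 120 day 28 libraries; in 48 of them dose alone differed, which that check cannot settle. One library column of the tables (1 in number) matched no label and was not used. Library totals spanned 8457034 to 22527309 in liver and 7253910 to 21473135 in lung, which sets the counting precision.

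Each table was fitted over its 10 groups with edgeR 4.0.16 (filterByExpr, trimmed mean of M values, robust quasi-likelihood, R 4.3.3), each dose against vehicle, and p-values were adjusted over all genes of a contrast at 0.05. The members and lists were chosen with earlier results of these data known. Members named with values were, in each role, the 2 with the highest and the 1 with the lowest mean change over the sexes at the highest dose of a table with any call, each member in a contrast with 5 or fewer calls, and up to 4 per difference test; others are marked as chosen afterwards. Sex, day and tissue differences were contrasts of the same kind, the last 2 in joint fits. Per-library length slopes used GENCODE M21 transcript lengths, which also gave the positions in GRCm38; the length trend was a spline with 4 degrees of freedom. Alternatives were DESeq2 1.42.0, RLE size factors, no low-count filter, only the compared groups, the length trend removed, a block for the place in the number series (blocks of 8), a replicate block and libraries left out; scaling by library totals, the other left-out libraries and the length trend in the joint fit were chosen after seeing the data. The fits were tested on simulated data.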

Additional observations from a re-analysis of the deposited data

Results flagged for a closer look

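Of 120 group checks of the per-library mean of the core and of the regulatory particle (log2, relative to the table's mean), 16 had a library far from the rest of its group, where chance gives about 1 in 20. In lung of day 2 males at 300 mg/kg-d, replicate 66 had 1.27 in the core and 0.722 in the regulatory particle, with the nearest libraries at 0.0437 and 0.0531. In lung of day 5 males at 150 ppm, replicate 098 had 0.731 and 0.525, with the nearest at 0.0411 and 0.0458. In lung of day 28 females at 1250 ppm, replicate 217 had 0.590 and 0.270, with the nearest at 0.0705 and 0.0183. The lowest library of lung day 5 females at 1250 ppm was at -0.0938 and -0.125, the nearest being 0.129 and 0.0608.

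The core mean also stood apart in replicate 216 of liver day 28 males at 1250 ppm (-0.183), the lowest library of lung day 5 females at 300 ppm (-0.254) and replicate 194 of lung day 28 males at 300 ppm (0.168). The regulatory mean stood apart in replicate 140 of liver day 5 females at 1250 ppm (0.200), replicate 194 of liver day 28 males at 300 ppm (0.328), replicate 04 of lung day 2 male vehicle (0.0311), replicate 64 of lung day 2 females at 200 mg/kg-d (0.240) and the lowest library of lung day 5 males at 2500 ppm (-0.134).

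The dose effect differed between liver and lung for 18 members in day 2 males, for 1 member (Psmd7) in day 28 females and for 1 member (Psmb7) in day 28 males, by the test of the difference in the joint fits. Without lung replicate 66 the 18 became 0.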

How the results depend on the processing

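Of 1709 values for named members under the alternatives, 195 lost their call, 17 gained one and 32 changed sign, none of these called. Of 908 values of a particle's median, 878 moved by less than the spread between libraries and 29 changed sign, in comparisons where no member was called. With the length trend removed, the members called numbered 4 in liver day 2 females at 200 and 4 at 300 mg/kg-d, 6 in males at the latter dose, 1 in liver day 28 females at 2500 ppm, 1 in lung day 2 females at 200 mg/kg-d, 2 in lung day 28 females at 300 ppm, 1 in males at 300 ppm there, and 4 in the liver minus lung difference of day 2 males. The medians were then -0.0632 (core) and -0.0502 (regulatory) in liver day 2 females and -0.149 (core) in males at 300 mg/kg-d, 0.0451 and 0.050 in the particles of lung day 2 males at 300 mg/kg-d, 0.00888 and 0.0290 in the regulatory particle of lung day 5 females at 300 ppm and males at 150 ppm, and 0.0239 (core) and -0.00209 (regulatory) in lung day 28 females at 1250 ppm. In lung day 28 males they were 0.0434 and 0.0227 at 150 ppm, 0.147 and 0.0408 at 1250 ppm and 0.122 and 0.0248 at 2500 ppm.

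Scaled by library totals, 25 members were called in liver day 2 females at 300 mg/kg-d (median of all genes -0.12; core -0.33, regulatory -0.26), the regulatory median at 200 mg/kg-d was -0.14, and lung day 2 males had a regulatory median of 0.0226 at 50 mg/kg-d and medians of 0.178 and 0.0675 at 300 mg/kg-d. Totals also gave 3 members in the liver minus lung difference of day 2 females, 0 in that of day 28 females and males, and 23 and 22 of 35 differing in vehicle level on days 2 and 5. Without the low-count filter 4 members were called in liver day 2 females at 200 mg/kg-d and 14 in males at 300 mg/kg-d. Fits of the compared groups alone gave 0 and 14 there, 1 in lung day 2 females at 300 mg/kg-d, 1 in lung day 5 females at 300 ppm and 0 in lung day 28 males at 1250 ppm. DESeq2 called 7 members in liver day 28 males at 1250 ppm, 1 at 150 ppm and 3 in lung day 28 males at 1250 ppm, and a block for the place in the number series gave 1 in liver day 28 males at 1250 ppm. RLE size factors gave 0 in the liver minus lung difference of day 28 females. The cause of these shifts was not tested.

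As each library was left out, the members called ranged from 1 to 9 in liver day 2 females at 200 mg/kg-d, 10 to 19 at 300 mg/kg-d, 0 to 1, 0 to 4 and 9 to 25 in males at 50, 100 and 300 mg/kg-d, and 0 to 3 in lung day 28 males at 1250 ppm. Medians ranged from -0.266 to -0.145 (core) and -0.130 to -0.0305 (regulatory) in liver day 2 females at 200 mg/kg-d, 0.0160 to 0.144 (core) in lung day 28 females at 1250 ppm, and 0.0289 to 0.0476 and 0.0867 to 0.132 (regulatory) in lung day 28 males at 300 and 1250 ppm. Without replicate 66 the medians of lung day 2 males at 300 mg/kg-d were -0.0739 and -0.0553 and the members in the liver minus lung difference numbered 0, and without replicate 098 those of lung day 5 males at 150 ppm were -0.0176 and -0.0173.

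Numbers shared by liver and lung were not treated as pairs, since not every same-numbered pair's correlation of deviations was above 0.1: it was in 13 of 49 pairs on day 2, 9 of 42 on day 5 and 10 of 46 on day 28 (medians 0.08, 0.04 and 0.06). These shares were above those of differently numbered libraries, 5 of 311, 17 of 312 and 10 of 314 (medians -0.01 each), a hint from the data that some numbers are shared. The rule cannot show that same-numbered libraries come from different animals. The main liver and lung tests treat them as separate, and their p-values rest on that. With the number as a replicate block, 0 members were called in every liver minus lung dose difference, including the 3 with calls. That fit held only vehicle and highest-dose libraries numbered in both tissues, and 0 were called without the block in the same libraries. It had fewer libraries and left out the other doses, and the cause of the loss was not tested. By the joint scaling, 35 were higher in liver vehicle on each day. Depth limits mainly Psma8 and Psmb11.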
